A study of Mus musculus with 6 samples.

Results

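The interferon-γ-inducible GTPases described here are 10 mouse genes, the guanylate-binding proteins Gbp2, Gbp3, Gbp4, Gbp5, Gbp7 and Gbp9 and the immunity-related GTPases Irgm1, Irgm2, Igtp and Ifi47. They were chosen by symbol, and all 10 were found among the 21965 genes of the count table. Transcripts were measured by RNA sequencing of polyA-selected RNA from interstitial macrophages, which occupy the lung's connective tissue rather than its air spaces. The cells were sorted with fluorescent antibodies from digested lungs of C57Bl/6 mice, 6 to 8 weeks of age, which carried no stated mutation or transgene. One group was injected into the peritoneum with 1 mg of WGP, a β-glucan of yeast cell walls, and the other with phosphate-buffered saline (PBS), in a treatment given as 6 days, and lung tissue was collected on day 7. There were 3 libraries per group, numbered 1 to 3. The number of mice behind a library is not given in the sources used here, so the p-values reflect the spread of these libraries alone, part of which may be technical. The comparison of WGP with PBS addresses how training with β-glucan, which is known to leave macrophages and monocytes with altered later responses, acted on these cells at a site of later metastasis.

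Interferon-γ, made mainly by T and NK cells, binds a receptor that signals through the kinases Jak1 and Jak2. Its target genes carry the GAS element or the interferon-stimulated response element (ISRE), which is bound by the induced factor Irf1, and the GTPases are among the most strongly induced genes of an activated macrophage. Guanylate-binding proteins coat vacuoles that hold bacteria or parasites and help to open them to inflammasome sensing. Among the immunity-related GTPases, Irgm1, Irgm2 and Igtp (also called Irgm3) sit on the cell's own membranes and hold the effector GTPases inactive there, whereas Ifi47 (Irgd) belongs to the effector class.

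The genes lie in 4 clusters of the mouse genome (GRCm38). Gbp5 (chromosome 3, 142493978 to 142522344), Gbp7 (142530342 to 142550149), Gbp3 (142560026 to 142573209) and Gbp2 (142620602 to 142638008) follow each other on the plus strand. Gbp9 (chromosome 5, 105077630 to 105139539) and Gbp4 (105115767 to 105139586) overlap on the minus strand, where they share 60 exon bases. On chromosome 11, Irgm1 (48861968 to 48871683, minus strand) lies near Ifi47 (49076587 to 49096974), and Igtp (58199556 to 58207591) lies within the annotated span of Irgm2 (58199618 to 58222782) apart from its first bases, with 162 exon bases in common. Reads over shared bases can be dropped or assigned to either gene. Of all 50-base windows of a gene's transcripts, between 0.379% (Irgm1) and 12.7% (Gbp7) also occurred in a transcript of another gene, 11.8% for Igtp (all of them shared with Irgm2), so the values of these genes are less certain to that extent.

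Promoters are shown because the genes are known to share their inducer, and the letters let the shared elements be compared. The RefSeq promoter table of GRCm38.p6 held 8 of the 10 genes. Each window ran from 250 bases before to 50 bases after an annotated start. The ISRE core, GAAA followed by any 2 bases and GAAA, searched on both strands, was present in a window of 7 of these 8 genes, against 3.99% of the 27025 genes with a promoter in the table. The GAS core TTCNNNGAA, which reads the same on both strands, was present in 4 of the 8, against 9.55% of genes. Both stood in the same window for these 4 genes (Gbp5, Gbp7, Irgm2 and Igtp). Counted by window, that was 4 of the 9 windows of the 8 genes, against 0.454% of 32851 windows. Such a match describes the letters and does not show that a factor binds there. In the stretches from 170 bases before to 10 bases after the start, written 5′ to 3′ on the strand of the gene, capitals mark the GAS and ISRE matches.
Irgm2, chr11:58214807-58214986, plus strand: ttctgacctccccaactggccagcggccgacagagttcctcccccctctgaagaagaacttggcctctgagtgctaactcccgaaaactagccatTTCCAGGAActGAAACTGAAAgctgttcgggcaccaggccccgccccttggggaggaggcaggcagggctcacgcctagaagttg
Igtp, chr11:58199386-58199565, plus strand: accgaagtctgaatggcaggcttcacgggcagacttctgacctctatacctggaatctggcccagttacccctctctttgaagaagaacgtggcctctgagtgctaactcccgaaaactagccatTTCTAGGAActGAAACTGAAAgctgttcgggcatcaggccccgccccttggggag
Irgm1, chr11:48871411-48871590, minus strand: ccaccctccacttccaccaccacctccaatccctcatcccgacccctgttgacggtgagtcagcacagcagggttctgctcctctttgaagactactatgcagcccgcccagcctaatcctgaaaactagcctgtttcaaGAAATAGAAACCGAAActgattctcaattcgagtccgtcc
Gbp7, chr3:142530166-142530345, plus strand: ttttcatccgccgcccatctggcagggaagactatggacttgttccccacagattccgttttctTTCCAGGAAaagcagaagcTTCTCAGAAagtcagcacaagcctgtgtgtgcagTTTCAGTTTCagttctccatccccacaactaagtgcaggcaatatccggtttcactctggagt
Gbp5, chr3:142496764-142496943, plus strand: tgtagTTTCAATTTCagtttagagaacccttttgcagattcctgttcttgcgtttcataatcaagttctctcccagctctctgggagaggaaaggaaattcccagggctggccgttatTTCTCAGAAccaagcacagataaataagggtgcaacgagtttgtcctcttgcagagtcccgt
Gbp2, chr3:142620493-142620672, plus strand: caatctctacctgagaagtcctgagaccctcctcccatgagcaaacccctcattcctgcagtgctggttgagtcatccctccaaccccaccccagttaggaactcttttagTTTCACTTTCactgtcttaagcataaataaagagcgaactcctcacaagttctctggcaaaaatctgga
Irgm2 and Igtp each had a GAS match a few bases before an ISRE match, with the same ISRE letters (GAAACTGAAA). Over 130 bases centred on that ISRE the sequences of both promoters were 96.9% identical, while the element began 64 bases before the start of Irgm2 and 34 bases before that of Igtp. In Irgm1, 2 overlapping ISRE matches began 30 and 24 bases before the start and no GAS match was found. Gbp7 had 2 GAS matches, 106 and 87 bases before the start, and an ISRE match at 53 bases. Gbp5 had a GAS match at 52 bases and an ISRE match at 165 bases before the start, with another GAS match outside the stretch shown. Gbp2 had an ISRE match at 59 bases, and Gbp3, not shown, had 2 overlapping ones at 45 and 39 bases. Neither element was found in the window of Ifi47.

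Library totals ran from 18254678 to 20346517 counts, and levels are given as CPM, a gene's counts scaled to a common library size after TMM normalisation. Summed interstitial macrophage markers (16 genes, all detected) were at 8210 to 9390 CPM after PBS and 6410 to 7730 CPM after WGP. Summed classical monocyte markers (12 genes) were at 2970 to 3700 and 8020 to 9530 CPM. Alveolar macrophage markers (16 genes) were at 5990 to 9150 and 1610 to 2060 CPM. Epithelial markers were at 357 to 699 and 16 to 72.1 CPM, and endothelial markers at 329 to 357 and 99.6 to 124 CPM. Transcripts typical of other cell types were thus present in both groups, at levels that differed between them. In bulk RNA, fewer cells of a type and less RNA per cell cannot be told apart. Y-linked transcripts summed to 9.79 to 179 CPM after PBS, lowest in replicate 3, and to 205 to 227 CPM after WGP. As every WGP library lay above every PBS library, the Y-linked level and the treatment cannot be fully told apart. One library stood apart in the genes described here. In WGP replicate 2 all 10 GTPases reached their highest level, Ifng had 130 counts against 8 to 41 in each of the other libraries, and summed T and NK cell markers were the highest of the WGP libraries, so results are given with and without it.

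All 10 GTPases had a higher mean level after WGP than after PBS, with fitted log2 fold changes between 0.83 and 1.65. Only Gbp9 and Irgm2 passed the test with all 6 libraries. The count was 2 of 10 higher and 0 lower, where 31.0% of the 12305 genes tested were called, 15.2% higher (1874 genes) and 15.7% lower (1935). With library sizes alone in place of TMM, which moved the median of all genes to -0.12, the same count of 2 stood beside 1236 genes higher and 2460 lower, and with upper quartile scaling beside 1468 and 2203. All 10 passed the low-count filter, with 139 to 8091 counts per library. The median log2 fold change of the 10 was 1.19, beside a median of -0.02 over all genes tested. The fitted log2 fold change was above 0 for 10 of 10 (48.2% of all genes tested) and at least 1 for 8 (2.19%). The 3 WGP libraries lay wholly above the 3 PBS libraries in 9 of the 10 genes, all but Gbp4, and wholly below them in 0. Of all genes tested, 23.2% had the WGP libraries wholly above and 24.9% wholly below. Single genes were tested with edgeR's quasi-likelihood method, adjusted by Benjamini-Hochberg across the 12305 genes at a threshold of 0.05. Fold changes are WGP over PBS, given with their SE.

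**Figure D1:**
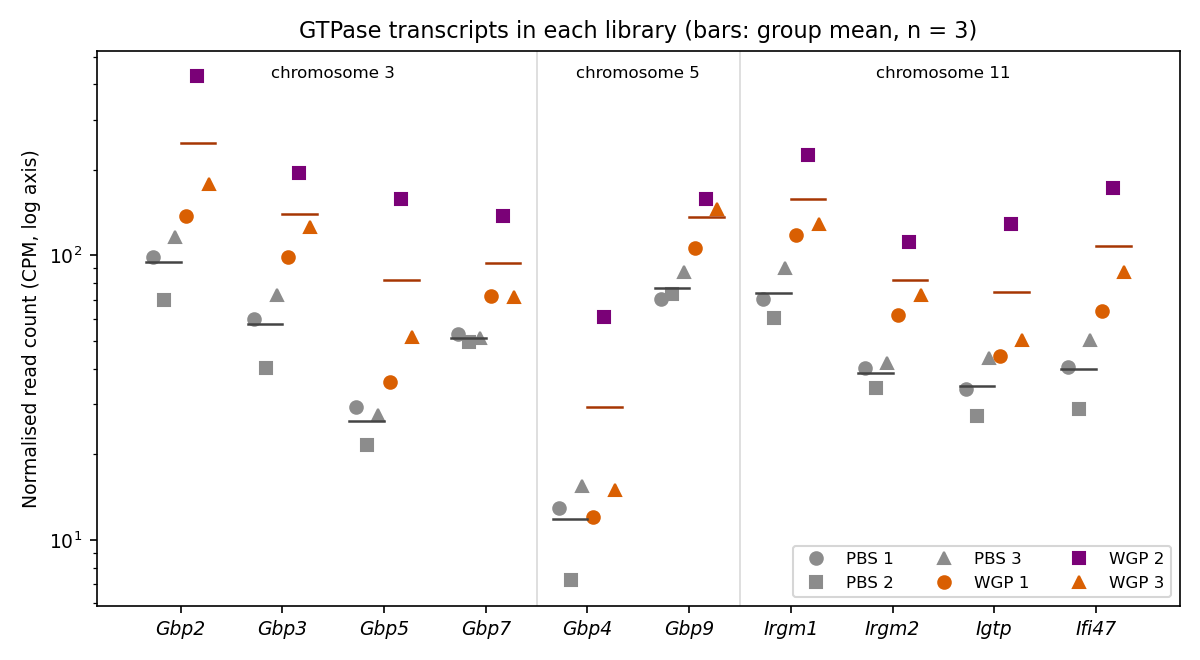
Normalised read count (CPM, log axis) of the 10 GTPase genes in each of the 6 libraries, with symbols for replicates 1, 2 and 3 and horizontal bars for the group means (n = 3). The purple square, WGP replicate 2, is the highest point of every gene, and only for Gbp4 does a WGP library fall below a PBS library.

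Within the chromosome 3 cluster, Gbp2, a prenylated protein that attacks pathogen vacuoles, had the highest counts. Its level in PBS replicates 1 to 3 was 98.4, 69.6 and 116 CPM, and in WGP replicates 1 to 3 it was 138, 427 and 179 CPM. The groups did not overlap, but WGP replicate 2 stood at 2.70 times the mean of WGP replicates 1 and 3. The log2 fold change of 1.39 ± 0.54 did not pass (adjusted p = 0.13), with a 95% confidence interval from -0.05 to 2.82. Gbp3, encoded beside it, was at 59.8, 40.4 and 72.4 CPM after PBS and at 99.1, 195 and 126 CPM after WGP. Its groups were separate too, with a log2 fold change of 1.28 ± 0.35 that missed the threshold (adjusted p = 0.052).

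Gbp5, a prenylated protein known to promote assembly of the NLRP3 inflammasome, had the largest fitted fold change of the 10. It was at 29.3, 21.5 and 27.6 CPM after PBS and at 36.0, 158 and 51.5 CPM after WGP. WGP replicate 2 was 3.60 times the mean of the other WGP libraries, and the log2 fold change of 1.65 ± 0.66 did not pass (adjusted p = 0.14). Gbp7, linked to assembly of the phagocyte oxidase, was the most even of the 10 among PBS libraries, at 52.9, 49.8 and 51.4 CPM. After WGP it was at 72.2, 137 and 71.6 CPM, so that WGP replicates 1 and 3 were nearly level and both above every PBS library. Its log2 fold change was 0.87 ± 0.28 (adjusted p = 0.072).

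The chromosome 5 pair differed from each other more than any neighbours on chromosome 3 did in the size of the WGP replicate 2 excess. Gbp9 was at 70.3, 73.2 and 87.4 CPM after PBS and at 107, 158 and 146 CPM after WGP. It varied least among the WGP libraries, with WGP replicate 2 at 1.25 times the mean of replicates 1 and 3, and it rose, with a log2 fold change of 0.83 ± 0.15 (adjusted p = 0.005). Gbp4 was at 12.9, 7.21 and 15.5 CPM after PBS and at 12.1, 60.8 and 15.0 CPM after WGP. WGP replicates 1 and 3 lay within the PBS range and only replicate 2 lay above it, at 4.5 times their mean. The log2 fold change of Gbp4, 1.30 ± 0.79, did not pass (adjusted p = 0.29), and its 95% confidence interval ran from -0.80 to 3.41.

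Of the regulatory immunity-related GTPases, Irgm1, which acts in mitochondrial and lysosomal membranes, was at 70.5, 60.2 and 90.5 CPM after PBS and at 118, 226 and 129 CPM after WGP. The groups were separate, and the log2 fold change was 1.10 ± 0.32 (adjusted p = 0.060). Irgm2 was at 40.2, 34.1 and 41.9 CPM after PBS and at 61.7, 112 and 72.4 CPM after WGP. Every WGP library exceeded every PBS library, and the rise of Irgm2 was 1.08 ± 0.23 on the log2 scale (adjusted p = 0.013). That call was lost without any 1 of the PBS libraries (adjusted p = 0.059 without replicate 1, 0.061 without replicate 2 and 0.054 without replicate 3), while the log2 fold change lay between 0.99 and 1.14 there.

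Igtp, the third of the regulators, was at 34.1, 27.2 and 43.5 CPM after PBS and at 44.2, 129 and 50.4 CPM after WGP. WGP replicate 1 was barely above PBS replicate 3, and the log2 fold change of 1.09 ± 0.52 did not pass (adjusted p = 0.19). Ifi47, the effector GTPase of the list, was at 40.6, 28.9 and 50.5 CPM after PBS and at 64.0, 173 and 87.5 CPM after WGP. Its libraries fell in the same order as those of Gbp2, and its log2 fold change was 1.43 ± 0.47 (adjusted p = 0.086).

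The number of GTPases called depended on how the spread was estimated and on which libraries were used. By DESeq2, 8 were higher (15.8% of all genes were), by limma-voom 7 (15.5%), and by edgeR without robust estimation 8 (15.0%). Gbp4 and Igtp did not pass in any of these 3, with adjusted p of 0.20 for Gbp4 and 0.098 for Igtp by DESeq2. Without WGP replicate 2, 6 were higher (Gbp5, Gbp7, Gbp9, Irgm1, Irgm2 and Ifi47), against 13.9% of genes. Their log2 fold changes then lay between 0.49 ± 0.09 (Gbp7) and 0.92 ± 0.26 (Ifi47). The median over all 10 was 0.74 in place of 1.19, and the fold change of Gbp4 was 0.19 ± 0.30. Without WGP replicate 1, 5 were higher (12.8% of genes), and without WGP replicate 3, 3 were (11.1%). Gbp9 was called in 17 of 18 alternative analyses and Irgm2 in 13. Without PBS replicate 1 only Gbp9 passed (9.63% of genes higher), and without PBS replicates 1 and 3 together 0 passed (7.72%). The last fit has 1 PBS library, so its spread comes from the WGP libraries alone and the lone library is assumed to vary like them. With all libraries, the biological coefficient of variation fitted to the 10 genes ran from 0.139 (Gbp9) to 0.629 (Gbp4), against 0.181 in common over all genes tested.

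**Figure D2:**
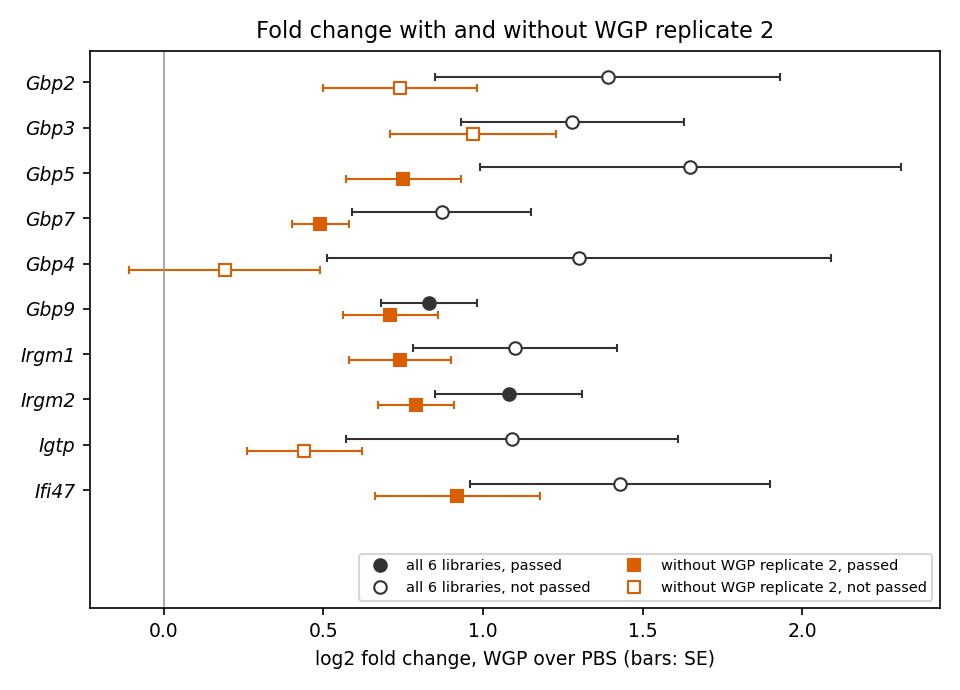
Log2 fold change (WGP over PBS, horizontal axis, bars are SE) of each GTPase with all 6 libraries (black circles) and without WGP replicate 2 (orange squares), filled where adjusted p was under 0.05. Leaving the library out lowered all 10 estimates, shortened the bars of all but Gbp9 and raised the number that passed from 2 to 6.

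Per kilobase of merged exon, Gbp2 had the highest level of the family in both groups and Gbp4 the lowest. In PBS libraries Gbp2 was at 37.6 ± 9.30 CPM per kilobase (SD, n = 3), with its lowest library at 27.7 above the highest library of the next gene, Gbp3, at 22.2. From Gbp3 (17.6 ± 4.94) through Igtp (17.3 ± 4.03), Ifi47 (16.2 ± 4.37), Gbp9 (14.9 ± 1.77), Irgm1 (12.7 ± 2.65) and Irgm2 (10.5 ± 1.11) to Gbp7 (9.15 ± 0.279), each gene's range overlapped that of the next. Gbp5 (3.94 ± 0.619) and Gbp4 (1.58 ± 0.565 CPM per kilobase) were each separate from the gene above. After WGP the order began with Gbp2 (98.5 ± 62.3), Ifi47 (43.7 ± 23.1), Gbp3 (42.9 ± 15.2) and Igtp (36.9 ± 23.5) and ended with Gbp7, Gbp5 and Gbp4 (3.91 ± 3.65 CPM per kilobase). The ranges of all neighbours in that order overlapped. These lengths include every annotated exon, so genes with long untranslated or rarely used exons are placed too low.

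**Figure D3:**
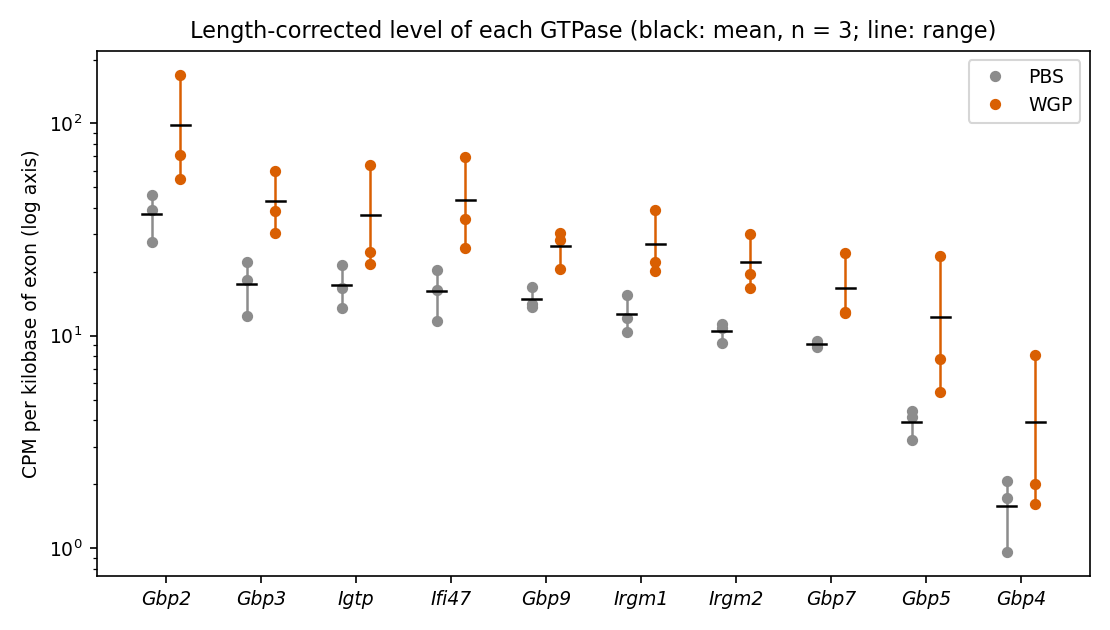
Level per kilobase of merged exon (CPM per kilobase, log axis) of each GTPase, ordered by the PBS mean, with the 3 libraries of each group as points, their range as a line and the mean as a black bar. Gbp2 stands above the other genes and Gbp5 and Gbp4 below them in PBS libraries, and the WGP ranges are wider than the PBS ranges for every gene.

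The 10 genes shared an order of libraries within each group. PBS replicate 2 was the lowest PBS library for 9 of them and PBS replicate 3 the highest for 8, and WGP replicate 1 was the lowest WGP library for 9. Summed over the 10 genes, the level was 509, 412 and 597 CPM in PBS replicates 1 to 3 and 751, 1780 and 928 CPM in WGP replicates 1 to 3. The closest profiles were those of Gbp2 and Ifi47, with a root mean square difference of 0.10 in centred log2 CPM over the 6 libraries, and of Irgm1 and Irgm2 (0.11). Gbp4 (0.37) and Gbp9 (0.34) were farthest from the mean profile of the 10. In the PBS libraries the summed alveolar macrophage markers had the reverse order, at 7750, 9150 and 5990 CPM in replicates 1 to 3. Their part in the order of the GTPases was not tested.

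The excess of WGP replicate 2 over the mean of WGP replicates 1 and 3 was a log2 difference of 0.32 (Gbp9) to 2.13 (Gbp4), with a median of 1.06, beside 0 over all genes tested. It was 1 or more for 5 of the 10 genes and for 3.58% of all genes tested. The library was singled out partly by these same GTPase levels, so the comparison only describes the size of the excess. Other interferon-γ-inducible genes were also high in that library. Cxcl9, a chemokine that attracts T cells, was at 14.1, 139 and 14.6 CPM in WGP replicates 1 to 3 and at 9.60 to 18.2 CPM after PBS. Nos2, the inducible nitric oxide synthase, had 3, 353 and 18 counts in the WGP libraries and 0 to 6 after PBS, and it fell below the filter of the test. Ifng itself had 9, 130 and 8 counts after WGP and 41, 15 and 23 after PBS.

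Markers of T cells were higher in this library than in the other WGP libraries, while those of NK cells were mixed. The 19 T and NK cell markers summed to 51.2, 189 and 134 CPM in WGP replicates 1 to 3, with the highest value in replicate 2, and to 206 to 296 CPM after PBS. The T cell receptor chain genes Cd3d and Cd3g had 0 counts in WGP replicate 1, 79 and 160 in replicate 2 and 16 and 22 in replicate 3. In the PBS libraries Cd3d had 41 to 94 counts and Cd3g 87 to 141, so that replicate 2 lay within the PBS range for Cd3d and above it for Cd3g. Of the 19 markers, 13 were highest of the WGP libraries in replicate 2, and 6 were highest of all libraries there. The NK cell receptor genes Klrb1c and Klrd1 had a log2 excess of -0.71 and -0.55 there, Ncr1 of -0.04, and the cytotoxic granule genes Prf1, Gzmb and Gzma of -0.15, 0.05 and 0.29, all 6 with their highest WGP level in replicate 3. Alveolar macrophage markers were at 1610, 2060 and 1810 CPM and B cell markers at 60.9, 107 and 82.5 CPM in the same WGP libraries, both highest in replicate 2. Classical monocyte markers (9530, 8020 and 8360 CPM) were lowest there. As given above, the 3 WGP libraries lay wholly above the PBS libraries for 9 of the 10 GTPases, and for 23.2% of all genes tested. The part of any of these cell types in the GTPase levels was not tested.

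**Figure D4:**
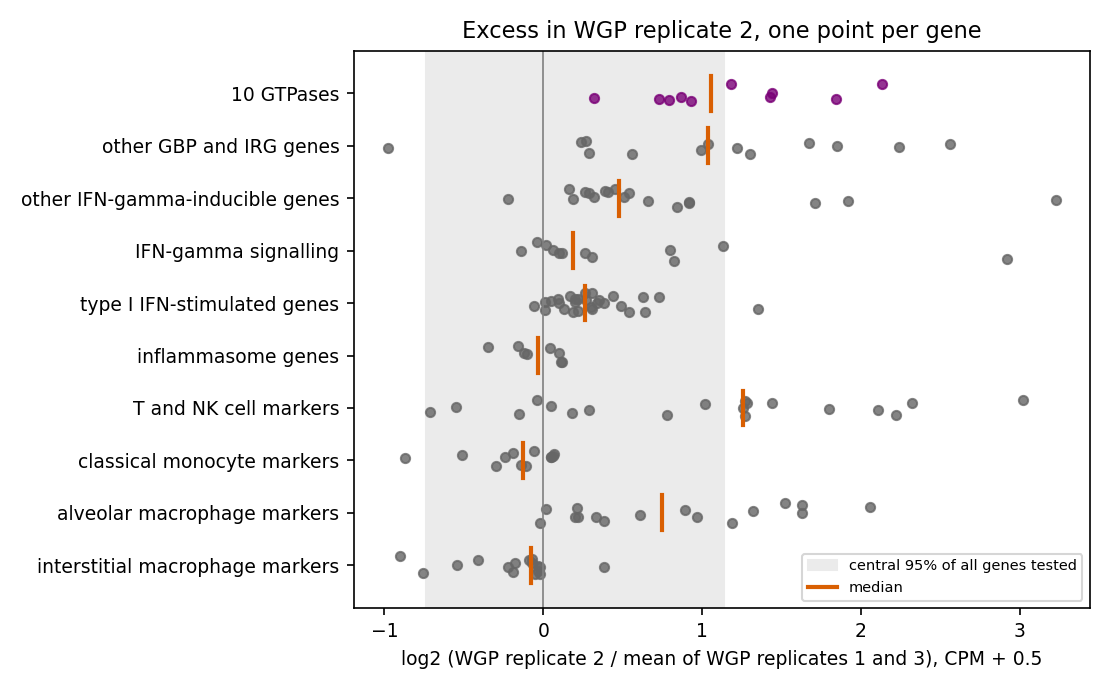
Log2 ratio of WGP replicate 2 to the mean of WGP replicates 1 and 3 (CPM plus 0.5) for each gene of 10 lists, 1 point per gene, with the list median in orange and the central 95% of all genes tested in grey. The GTPases (median 1.06), the other genes of their families (1.04) and T and NK cell markers (1.26) lie to the right. So do alveolar macrophage markers (0.75) and, less far, other interferon-γ-inducible genes (0.48). Inflammasome genes (-0.03) and classical monocyte markers (-0.13) lie near 0.

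Among other genes of the GTPase families, 14 of 16 listed were analysed here and 13 were tested. Of these, 2 were higher and 0 lower after WGP, with a median log2 fold change of 0.48. The share higher was near the 15.2% over all genes tested, of which 15.7% were lower. The very large inducible GTPase gene Gvin1 rose from 5.83 ± 1.54 to 14.4 ± 1.56 CPM (a log2 difference of 1.31 ± 0.22, adjusted p = 0.0014), and 9930111J21Rik2 rose from 41.1 ± 4.93 to 67.1 ± 8.29 CPM (0.71 ± 0.12, adjusted p = 0.0014). The effector genes Iigp1, at 5.33, 27.7 and 5.58 CPM, and Tgtp1, at 0.79, 6.39 and 0.55 CPM in WGP replicates 1 to 3, were near or within the PBS range outside replicate 2. Neither passed (adjusted p = 0.29 for Iigp1 and 0.12 for Tgtp1). The reads of Tgtp1 and Tgtp2, and of Gbp6 and Gbp10, come from near-identical genes and are uncertain.

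Upstream of the GTPases, 4 of 12 genes of interferon-γ signalling were higher after WGP and 0 lower (15.2% and 15.7% of all genes tested). Both receptor chains rose, Ifngr1 from 659 ± 8.29 to 835 ± 51.1 CPM (a log2 difference of 0.34 ± 0.07, adjusted p = 0.0039) and Ifngr2 from 151 ± 8.99 to 214 ± 13.2 CPM (0.50 ± 0.08, adjusted p = 0.00083). The others that rose were Irf8, a factor of the monocyte lineage that partners with Irf1 (1.03 ± 0.14, adjusted p = 0.0014), and the phosphatase gene Ptpn6 (0.51 ± 0.09, adjusted p = 0.0014). The log2 excess of WGP replicate 2 was -0.14 (Ifngr1) to 0.31 (Irf8) for these 4 genes.

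Other inducible targets of interferon-γ were higher for 9 of 18 tested and lower for 0 (15.2% and 15.7% of all genes tested). Their median log2 fold change was 0.63. The Fc receptor gene Fcgr1 rose from 100 ± 14.4 to 206 ± 19.4 CPM (a log2 difference of 1.03 ± 0.11, adjusted p = 0.00012). Genes of antigen processing among them that passed rose by 0.45 to 0.94 on the log2 scale. They included the peptide-loading chaperone Tapbp (0.45 ± 0.09, adjusted p = 0.0044) and the proteasome activator Psme1 (0.46 ± 0.09, adjusted p = 0.0032). The immunoproteasome subunits Psmb10 (0.51 ± 0.11, adjusted p = 0.0066) and Psmb9 (0.84 ± 0.24, adjusted p = 0.048) passed, whereas Psmb8 did not (0.54 ± 0.17, adjusted p = 0.055). The peptide transporter Tap1 had the largest of these rises (0.94 ± 0.24, adjusted p = 0.033). Cd274, which encodes the checkpoint ligand PD-L1, lay wholly below the PBS libraries, at 70.4, 138 and 83.2 CPM after WGP against 151 to 169 CPM, without passing (-0.73 ± 0.27, adjusted p = 0.099). It was the 1 gene of the list called lower with limma-voom, without robust estimation, with the replicate block and without WGP replicate 2. The number higher fell to 5 with library sizes alone or upper quartile scaling, to 5 without PBS replicate 2 or WGP replicate 3 and to 4 without PBS replicate 1.

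Of 8 inflammasome genes, whose products act downstream of vacuoles opened by guanylate-binding proteins, 5 rose and 1 fell. Beside this and the next 2 lists, 15.2% of all genes tested were called higher and 15.7% lower. Casp4, which encodes the sensor caspase of cytosolic lipopolysaccharide, rose from 39.9 ± 2.23 to 73.0 ± 6.00 CPM (a log2 difference of 0.87 ± 0.09, adjusted p = 0.00011). The adaptor gene Pycard rose by 0.92 ± 0.12 (adjusted p = 0.00025) and Casp1 by 0.47 ± 0.09 (adjusted p = 0.0026), whereas the cytokine gene Il18 fell from 59.1 ± 9.98 to 26.1 ± 1.11 CPM (-1.18 ± 0.13, adjusted p = 1e-04). The autophagy conjugation machinery, which places the GTPases on vacuoles, had a share of calls close to the 31.0% over all genes tested. Of its 10 genes, 1 rose and 2 fell. These were Atg7 (0.41 ± 0.07, adjusted p = 0.0015), Gabarapl1 (-0.73 ± 0.09, adjusted p = 0.00023) and Map1lc3a (-0.57 ± 0.18, adjusted p = 0.035). The call of Map1lc3a was lost without WGP replicate 2, WGP replicate 3 or any 1 PBS library. Of 5 genes of the prenylation machinery, only Pggt1b passed, at 15.9 ± 2.07 and 21.4 ± 2.10 CPM (0.43 ± 0.15), with an adjusted p that rounds to 0.050, a call lost by DESeq2, with the other scalings and without any 1 library other than PBS replicate 3. Fnta, Rce1 and Fntb had lower means after WGP and did not pass (adjusted p = 0.077, 0.12 and 0.20), and under library sizes alone, as under upper quartile scaling, the list had 0 higher and 1 lower.

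Type I interferon-stimulated antiviral genes, read in the same libraries, were higher for 21 of 28 tested and lower for 0. Of all genes tested, 15.2% were higher and 15.7% lower. The median log2 fold change of the type I list was 0.85. The sum of these genes was 2420, 2510 and 3190 CPM after PBS and 4500, 5440 and 5140 CPM after WGP. The median excess of WGP replicate 2 was 0.26 for that list and 1.06 for the 10 GTPases. Eif2ak2, the RNA-activated kinase, was at 83.5, 89.8 and 95.2 CPM in the WGP libraries and rose by 0.85 ± 0.08 (adjusted p = 7.2e-05). Oas3, an activator of RNA decay, rose by 1.02 ± 0.11 (adjusted p = 0.00018), and Ifitm3, which blocks virus entry, by 0.86 ± 0.10 (adjusted p = 2e-04). The difference between the lists was not tested.

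Among the genes closest to the mean profile of the GTPases, out of 9327 with a mean of at least 5 CPM, were Ms4a4b (root mean square difference 0.127 in centred log2 CPM over 6 libraries), Ifi208 (0.152), Cd40 (0.164) and Slfn9 (0.171). These genes were picked for this likeness, so a higher level after WGP was built into the choice. Their p-values are therefore no independent support. Cd40, a co-stimulatory receptor of macrophages, was at 13.8, 11.4 and 16.2 CPM after PBS and 26.3, 47.7 and 23.6 CPM after WGP. It rose by 1.24 ± 0.29 (adjusted p = 0.015), a call lost when PBS replicate 1 (adjusted p = 0.073) or 2 (adjusted p = 0.071) was left out. Ms4a4b was at 6.41, 4.83 and 7.32 CPM after PBS and 9.54, 18.3 and 10.3 CPM after WGP, a log2 fold change of 1.04 ± 0.28 (adjusted p = 0.017). Without WGP replicate 2, PBS replicate 1 or PBS replicate 2 it did not pass (adjusted p = 0.068, 0.061 and 0.065).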

How the data were processed

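The authors deposited whole-number read counts per gene, which sum to a different total in each library and were analysed as raw counts. HTSeq 0.10.0 and FastQC 0.10.1 and the builds GRCm38 and mm10 are named in the submitters' processing notes. The sources used here do not give the aligner, the annotation or the strand setting. GENCODE M21 matched 21939 of 21965 identifiers (99.9%). The groups were compared by edgeR 4.0.16 (R 4.3.3) with filterByExpr, TMM and the robust quasi-likelihood fit, and two-sided p-values were adjusted by Benjamini-Hochberg over 12305 genes. An SE is the absolute log2 fold change over the root of the F statistic. Exact tests of 3 against 3 values cannot give a two-sided p below 0.1, so none was used.

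Alternatives were other scalings and filters, DESeq2 1.42.0, limma-voom (limma 3.58.1), no robust estimation, the replicate number as a block, a Y-linked covariate and leaving out libraries. The members, gene lists and tests were chosen with earlier results of these data known. Named were all members, up to 4 genes of each list by smallest p (all where 5 or fewer passed) and the 5 closest profiles, of which 1 is not reported here, and, after their values were seen, Cxcl9, Nos2, Ifng, Iigp1, Cd3d, Cd3g, Tap1, Psmb9, Cd274 and 6 NK cell and granule genes. The test was checked on simulated counts. No library repeated another (chi-square per degree of freedom 13.5 to 24.8). Protein sequences, promoters of Gbp4 and Gbp9 and the genes Gbp11, Gm12250 and Mx2 were not analysed here.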

Additional observations from a re-analysis of the deposited data

How the results depend on the processing

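The fitted log2 fold change of each of the 10 GTPases was above 0 in all 18 alternative analyses. Their median lay between 0.74 (without WGP replicate 2) and 1.63 (without PBS replicates 1 and 3 together). The number called higher was 8 with DESeq2, 7 with limma-voom, 8 without robust estimation, 6 at an adjusted p under 0.1 (19.4% of all genes), 1 with Y-linked transcripts as a covariate (12.7%), 0 without PBS replicates 1 and 3 together (7.72%; 1 at an unadjusted p under 0.05) and 9 without PBS replicate 3 and WGP replicate 2 together (13.2%), the last chosen after seeing the data. Leaving out 1 library at a time gave 1 to 6 GTPases and 2491 to 3717 genes in all, against 3809. The fit without PBS replicates 1 and 3, whose spread rests on the WGP libraries alone, called 1820 genes. The Y-linked covariate kept Gbp9 (adjusted p = 0.011). Why the counts differ was not tested. The replicate numbers are not stated to pair libraries. Deviations of same-numbered libraries correlated across genes at -0.08 to -0.05, and those of different-numbered libraries at -0.04 to 0.11. With 3 libraries per group such values cannot exclude a pairing. With the replicate block 2 GTPases and 3185 genes were called. The log2 fold change of Tgtp1 turned to -0.03 without PBS replicate 3 and WGP replicate 2. Genes with few counts (Tgtp1, Nos2, Ifng) are limited by depth.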
